A study of Mus musculus with 8 samples.

Results

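The aldo-keto reductase genes described here are 10 genes of the AKR1 subfamilies, Akr1a1, Akr1b3, Akr1b7, Akr1b8, Akr1b10, Akr1c12, Akr1c13, Akr1c14, Akr1c18 and Akr1c19, taken by symbol from a deposited table of 27179 gene entries. They were followed in EpCAM+ cells, epithelial by their surface protein, that had been isolated with a cell sorter from the antral stomach tumors of 8 mice, with 1 RNA-seq library from each mouse. The Yap1KO group (4 libraries, labelled gp130FF;Yap1 flox/flox) came from Gp130FF; Tff1:CreERT2; Yap1 fl/fl mice given tamoxifen, in which Cre removes exon 3 of Yap1 in cells that use the Tff1 promoter. The study describes these as foveolar (surface mucous) cells. From Tff1 expression in the tumors it also infers that other epithelial cells were targeted, chief, parietal and tumor epithelial cells among them. The Yap1WT group (4 libraries, labelled gp130FF; Yap1WT) kept Yap1: the study describes littermates of the same genotype given vehicle, whereas the labels give 3 days after tamoxifen for all 8 mice. All 8 mice carry the gp130 mutation (FF) that drives the gastric tumors, and the labels give an age of 18 weeks for all of them.

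Aldo-keto reductases are soluble enzymes that use NADPH to reduce aldehydes and ketones to alcohols, on sugars, lipid-derived aldehydes, retinal, prostaglandins and steroids. The Akr1b genes encode aldose reductase and its relatives, which act on glucose and on reactive aldehydes. The Akr1c genes encode hydroxysteroid dehydrogenases and related enzymes, and Akr1c12 and Akr1c13 are known for their expression in the mouse stomach. In human cells, several AKR1B and AKR1C genes are known targets of NRF2, a transcription factor of the response to oxidants. YAP1 is a transcriptional coactivator of the Hippo pathway that binds DNA through TEAD factors.

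In the Yap1KO tumor cells Akr1c14 was 5.43-fold lower and Akr1b8 1.71-fold lower than in Yap1WT tumor cells. These were the 2 members called lower of the 9 that had enough reads to be tested, and 0 were called higher. Akr1c12, Akr1c13 and Akr1c19, the neighbours of Akr1c14 on chromosome 13, had log2 fold changes between -0.48 and -0.28 that did not pass the test. Akr1a1, the most abundant member per gene length, had a log2 fold change of 0.12 and was not called. A call means an adjusted p under 0.05 in edgeR's quasi-likelihood test over 13508 genes, in which 2.34% of genes were called lower in Yap1KO and 3.52% higher. At an unadjusted p under 0.05, 5 members were lower and 0 were higher, and 8 of the 9 fold changes were below 0. The 2.34% and 3.52% hold for calls at the adjusted p only. Shares of all genes at an unadjusted p under 0.05, or below 0, are not given here, so neither count is read against a background. The median log2 fold change was -0.32 over the 9 members and -0.01 over all genes tested.

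The count totals were between 18229945 and 74278015 in the Yap1KO libraries and between 27607755 and 77483047 in the Yap1WT libraries. Yap1 itself had 21.5 to 30.0 CPM (counts scaled to library size, with TMM factors) in Yap1KO libraries and 64.9 to 78.9 CPM in Yap1WT libraries, a log2 fold change of -1.51 (SE 0.13, edgeR adjusted p = 0.000209), so all 8 libraries fit their labels. Reads of a transcript that lacks exon 3 can still be counted to the gene. Yap1KO replicate 4, the library with the fewest reads, stood apart from the other 7 on the first principal component, and results are also given without it. Of the libraries, 1 Yap1KO and 2 Yap1WT had the Xist and Ddx3y pattern of female mice.

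Akr1c14 encodes a 3-alpha-hydroxysteroid dehydrogenase, which interconverts ketone and alcohol groups on steroids. It lies at chr13:4048991-4090560 (GRCm38.p6), at one end of the Akr1c cluster. Its level was 39.3, 32.9, 57.3 and 48.0 CPM in Yap1KO replicates 1 to 4, against 200.4, 214, 346 and 203 CPM in Yap1WT replicates 1 to 4. Every Yap1KO library was below every Yap1WT library, and Yap1WT replicate 3 was above the other Yap1WT libraries. The means were 44.4 ± 10.6 CPM in Yap1KO and 241 ± 70.3 CPM in Yap1WT (SD, n = 4 each), with a log2 fold change of -2.44 (SE 0.23, edgeR adjusted p = 0.000288). Of the 13508 genes tested, Akr1c14 had the 20th lowest log2 fold change. In bulk RNA, fewer cells of the kind that express a gene and less of its RNA per cell cannot be told apart. Without Yap1KO replicate 4 the log2 fold change of Akr1c14 was -2.48, and without Yap1WT replicate 3 it was -2.21, both still called.

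Akr1b8 encodes an enzyme first described as a protein induced by fibroblast growth factor, which reduces retinal and lipid-derived aldehydes. It lies at chr6:34354146-34368461 (GRCm38.p6) and overlaps the pseudogene Gm13858, whose reads cannot be told apart from its own where the 2 share bases. Akr1b8 had 116, 146, 139 and 114 CPM in Yap1KO replicates 1 to 4, against 195, 195, 244 and 246 CPM in Yap1WT replicates 1 to 4. The groups did not overlap, and the highest Yap1KO library stayed below the lowest Yap1WT library. The means were 129 ± 16.2 CPM in Yap1KO and 220 ± 28.7 CPM in Yap1WT (SD, n = 4 each), with a log2 fold change of -0.77 (SE 0.13, edgeR adjusted p = 0.00631). Without Yap1KO replicate 4 it was -0.72 and still called. Both calls were present under every alternative listed in the methods.

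**Figure D1:**
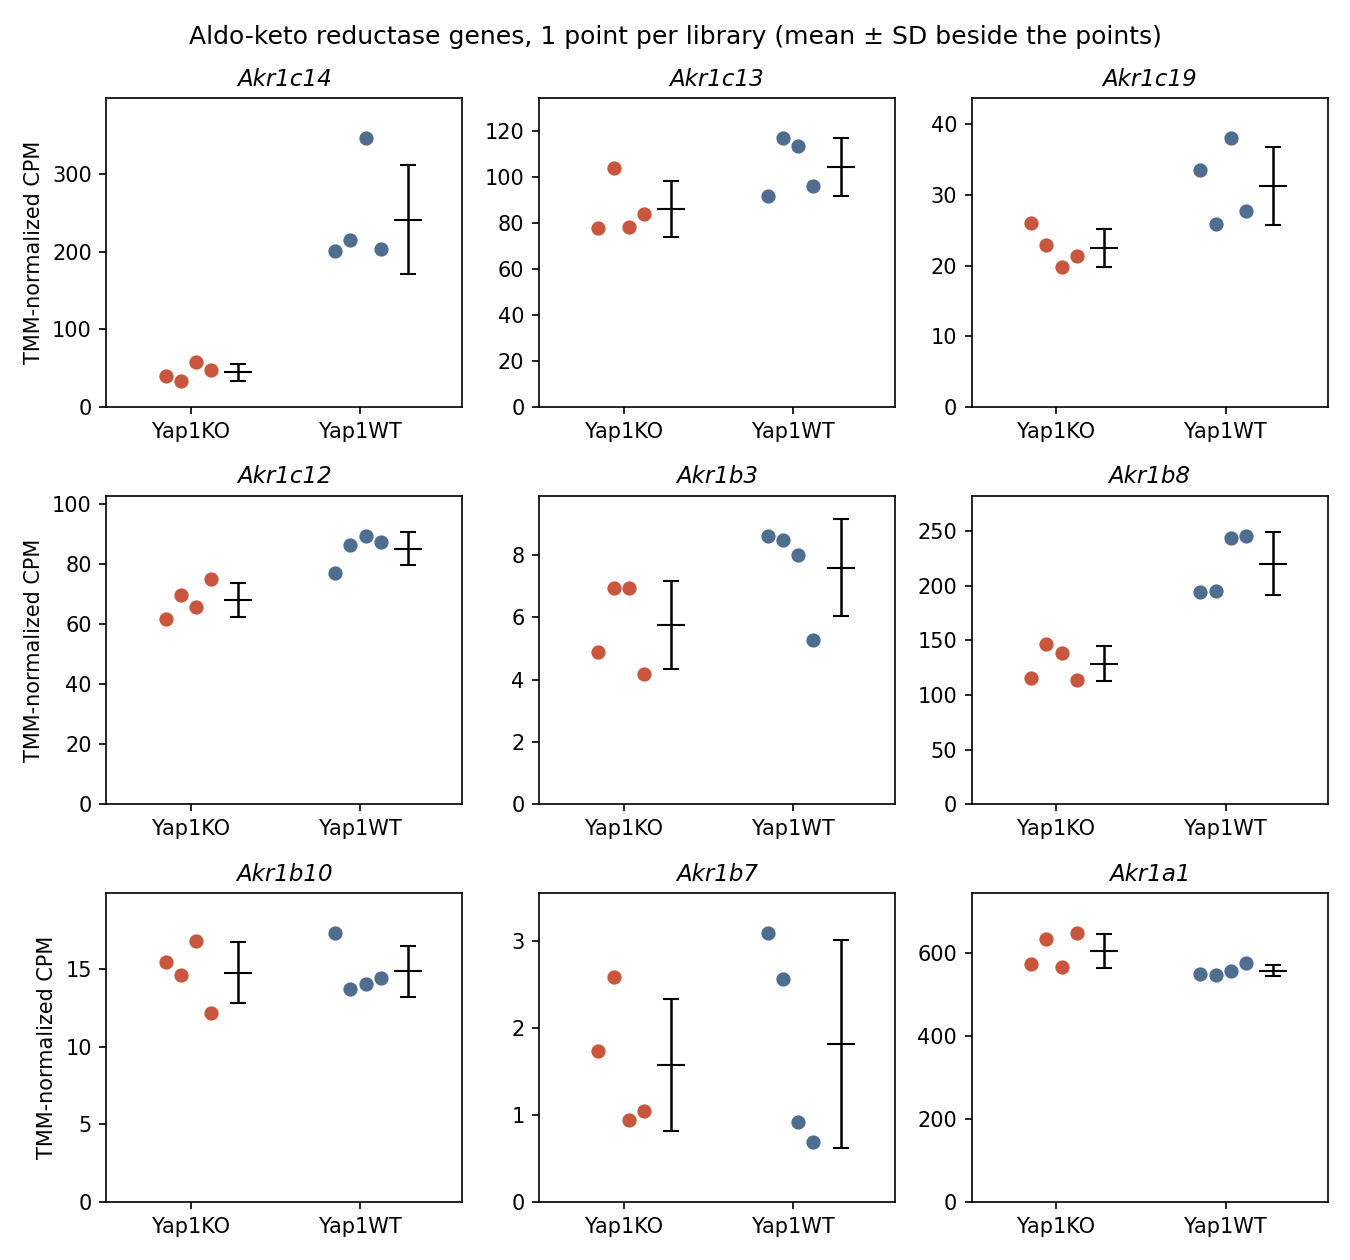
TMM-normalized CPM (y axis, from 0) of the 9 tested aldo-keto reductase genes in the 4 Yap1KO libraries (left, red) and the 4 Yap1WT libraries (right, blue), with 1 point per library and the mean ± SD in black. Akr1c14 (32.9 to 57.3 against 200.4 to 346 CPM) and Akr1b8 (114 to 146 against 195 to 246 CPM) are separated between the groups, Akr1c12 narrowly so, and the other 6 overlap.

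Akr1c12 lies at chr13:4268172-4279399 (GRCm38.p6) and had 61.6, 69.7, 65.9 and 75.2 CPM in Yap1KO replicates 1 to 4, against 77.1, 86.5, 89.4 and 87.4 CPM in Yap1WT replicates 1 to 4. The groups did not overlap, although Yap1KO replicate 4 and Yap1WT replicate 1 were close. Its log2 fold change was -0.32 (SE 0.10) and was not called (edgeR adjusted p = 0.0840). Akr1c12 passed the threshold with DESeq2 (adjusted p = 0.0366) and with the replicate number as a block (edgeR adjusted p = 0.0419), and its adjusted p lay between 0.0366 and 0.223 over the alternatives.

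Akr1c13 lies at chr13:4191168-4205604 (GRCm38.p6) and is nearly identical to Akr1c12 in sequence. It had 77.9, 104, 78.4 and 83.7 CPM in Yap1KO replicates 1 to 4, against 91.6, 117, 113 and 95.8 CPM in Yap1WT replicates 1 to 4. Yap1KO replicate 2 lay within the range of Yap1WT, and the log2 fold change of -0.28 (SE 0.13) was not called (edgeR adjusted p = 0.244). Akr1c19, at chr13:4233503-4248361 (GRCm38.p6), had 26.1, 22.9, 19.8 and 21.4 CPM in Yap1KO replicates 1 to 4, against 33.5, 25.9, 38.0 and 27.7 CPM in Yap1WT replicates 1 to 4. The groups met only at Yap1KO replicate 1 and Yap1WT replicate 2, and the log2 fold change of -0.48 (SE 0.15) was not called (edgeR adjusted p = 0.103).

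Akr1c18, at chr13:4132615-4150646 (GRCm38.p6), encodes the 20-alpha-hydroxysteroid dehydrogenase that breaks down progesterone in the ovary. It had 0, 0, 0 and 1 reads in Yap1KO replicates 1 to 4, and 0, 0, 0 and 9 reads in Yap1WT replicates 1 to 4. Akr1c18 was thus next to undetected in both groups and was not tested. Farther along the cluster, Akr1c6 and Akr1c20 had 0 reads in every library, and Akr1c21 had at most 7 reads in a library.

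The 4 detected Akr1c genes differ in how alike their messages are, which sets how well short reads can be told apart. The first 60 coding bases of each are shown (chromosome 13, coding strand, GRCm38 transcripts), with capitals at bases that differ from Akr1c13.
Akr1c14: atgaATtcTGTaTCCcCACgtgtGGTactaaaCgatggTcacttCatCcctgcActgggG
Akr1c13: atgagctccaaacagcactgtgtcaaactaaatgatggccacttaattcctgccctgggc
Akr1c12: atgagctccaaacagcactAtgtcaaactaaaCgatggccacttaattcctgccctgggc
Akr1c19: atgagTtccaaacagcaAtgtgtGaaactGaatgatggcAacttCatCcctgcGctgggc
Akr1c14 differed from Akr1c13 at 20 of the 60 bases, Akr1c19 at 8 and Akr1c12 at 2. Over the whole coding sequence Akr1c12 and Akr1c13 were 96.2% identical, whereas Akr1c14 was 72.5% to 76.0% identical to the other 4 Akr1c members. Of all stretches of 80 bases, the read length, in the transcript of Akr1c12, 15.7% also occurred in Akr1c13. Reads in these stretches cannot be assigned to one of the 2 genes unless their mate lies outside, so the split between Akr1c12 and Akr1c13 is uncertain. Akr1c14 shared no such stretch with another Akr1c gene, and 4.99% of its stretches with the pseudogene Gm18857. Akr1c19 shared 3.69% of its stretches with the pseudogene Marcksl1-ps4.

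All Akr1c members together had a summed level of 221 ± 11.3 CPM in Yap1KO libraries and 461.6 ± 85.0 CPM in Yap1WT libraries (SD, n = 4 each). Akr1c14 made up 14.3% to 25.9% of these reads in Yap1KO libraries, against 48.3% to 59.0% in Yap1WT libraries. The make-up of the cluster's reads thus differed between the groups. Akr1c14 took the largest share of reads in every Yap1WT library and Akr1c13 the largest in every Yap1KO library. These shares are not corrected for gene length. Per gene length, in the deposited log2 values, Akr1c13 (6.56) was above Akr1c14 (6.45) in Yap1WT replicate 2. Akr1c12 took 29.8% to 32.9% of the reads in Yap1KO libraries and 15.2% to 21.1% in Yap1WT libraries, and Akr1c13 took 35.4% to 45.3% in Yap1KO libraries and 19.3% to 26.3% in Yap1WT libraries. These larger shares in Yap1KO are not higher levels. Mean Akr1c12 was 68.1 CPM in Yap1KO and 85.1 CPM in Yap1WT, and mean Akr1c13 was 86.0 and 104 CPM, neither called.

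**Figure D2:**
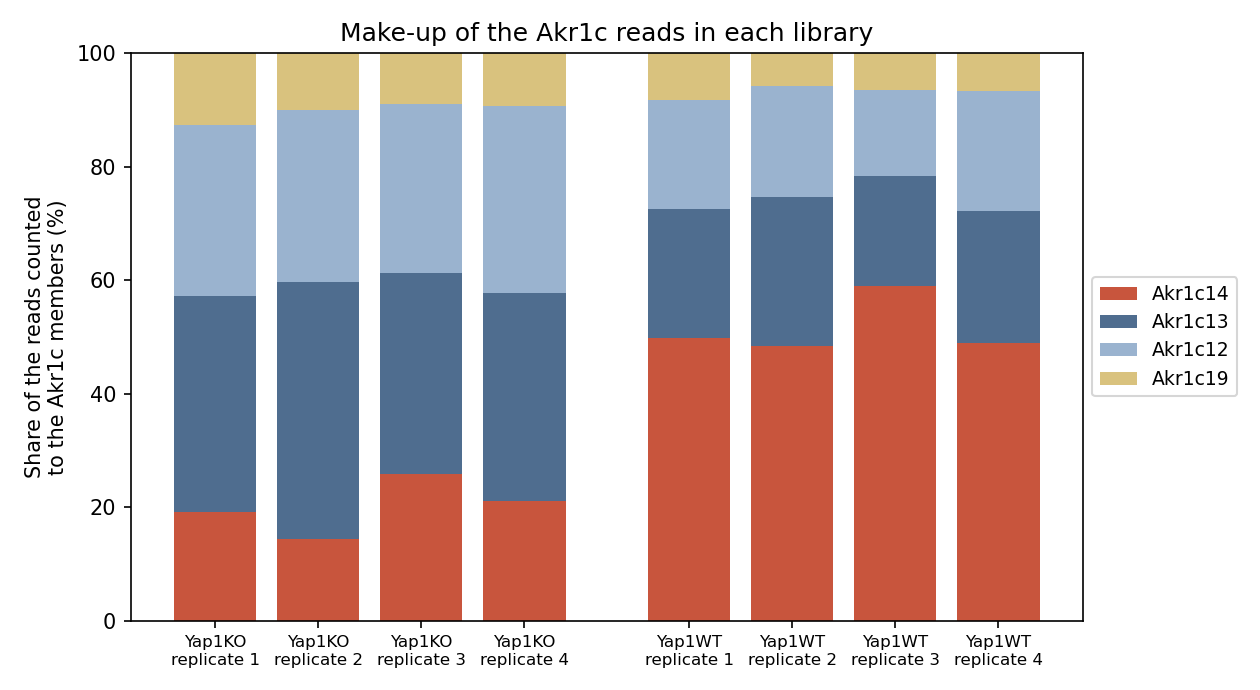
Share of the reads counted to the Akr1c members (y axis, %) that each gene took in the 4 Yap1KO libraries (left bars) and the 4 Yap1WT libraries (right bars); Akr1c18, at most 9 reads, is too small to draw. The red Akr1c14 part is 14.3% to 25.9% in Yap1KO libraries and 48.3% to 59.0% in Yap1WT libraries.

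The ratio of 2 genes within a library does not depend on how libraries are scaled, and 12 pairs of members within the Akr1c and Akr1b clusters were compared with exact two-sided permutation tests over the 8 libraries. The ratio of Akr1c13 to Akr1c14 was 0.98 ± 0.51 on the log2 scale in Yap1KO libraries and -1.17 ± 0.31 in Yap1WT libraries (SD, n = 4 each), a difference of 2.15 (exact permutation p = 0.0286, adjusted over 12 pairs p = 0.0857). In 4 of 12 pairs the p was 0.0286, the smallest that 4 against 4 libraries can give, and after adjustment over the pairs none was under 0.05. These were the 3 pairs of Akr1c14 with Akr1c12, Akr1c13 and Akr1c19, and the pair of Akr1b8 and Akr1b10. The 3 pairs share Akr1c14, so they are not separate results. With this smallest p, an adjusted p under 0.05 would need most of the 12 pairs to reach it, so the adjusted values decide little. The log2 ratio of Akr1c12 to Akr1c14 differed by 2.11, that of Akr1c14 to Akr1c19 by -1.97 and that of Akr1b8 to Akr1b10 by -0.76, each as Yap1KO minus Yap1WT. The log2 ratio of Akr1c12 to Akr1c13 differed by -0.04 (exact permutation p = 0.714), with -0.58 to -0.16 in Yap1KO libraries and -0.43 to -0.13 in Yap1WT libraries.

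In the Akr1b cluster on chromosome 6, the summed level of the 4 members was 151 ± 19.0 CPM in Yap1KO libraries and 244 ± 25.7 CPM in Yap1WT libraries (SD, n = 4 each). Akr1b8 made up 84.0% to 86.8% of these reads in Yap1KO libraries and 87.0% to 92.3% in Yap1WT libraries. Akr1b10, at chr6:34384247-34396949 (GRCm38.p6), begins next to Akr1b8 and is 85.5% identical to it over the coding sequence. Akr1b10 had 15.5, 14.6, 16.8 and 12.1 CPM in Yap1KO replicates 1 to 4, against 17.3, 13.7, 14.03 and 14.4 CPM in Yap1WT replicates 1 to 4. The ranges overlapped, with Yap1KO replicate 4 below every Yap1WT library and Yap1WT replicate 1 above every Yap1KO library, and the log2 fold change of -0.01 (SE 0.16) was not called (edgeR adjusted p = 0.985). Akr1b8 and Akr1b10 shared 1 stretch of 80 bases, so their reads can be told apart almost everywhere.

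Akr1b7, at chr6:34412362-34423137 (GRCm38.p6), encodes an aldose reductase-like protein known from the mouse vas deferens and adrenal gland. It was the least abundant tested member, with 1.74, 2.59, 0.94 and 1.05 CPM in Yap1KO replicates 1 to 4, against 3.09, 2.57, 0.92 and 0.69 CPM in Yap1WT replicates 1 to 4. Replicates 1 and 2 were the highest in both groups. Its log2 fold change of -0.21 (SE 0.56) was not called (edgeR adjusted p = 0.882), and without Yap1WT replicate 1 it was 0.18. The mouse numbers in the labels fall into 2 series, a lower one (replicates 1 and 2 of both groups) and a higher one (replicates 3 and 4), which the labels do not explain. In the lower series Akr1b7 differed by -0.40 and in the higher by 0.30 on the log2 scale, as Yap1KO minus Yap1WT, so its direction was not shared.

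The called members kept their direction in both series of mouse numbers. Akr1c14 differed by -2.53 in the lower series and by -2.34 in the higher, and Akr1b8 by -0.58 and by -0.96, each with 2 Yap1KO and 2 Yap1WT libraries, too few for a test within a series. Akr1c12, Akr1c13, Akr1c19 and Akr1b3 were also below 0 in both series, between -0.66 and -0.20.

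Akr1b3, at chr6:34303930-34317489 (GRCm38.p6), encodes aldose reductase, which turns glucose into sorbitol in the first step of the polyol pathway. It had 4.90, 6.93, 6.96 and 4.20 CPM in Yap1KO replicates 1 to 4, against 8.62, 8.48, 7.997 and 5.29 CPM in Yap1WT replicates 1 to 4. Yap1WT replicate 4 lay among the Yap1KO libraries, and the log2 fold change of -0.40 (SE 0.26) was not called (edgeR adjusted p = 0.428). Of the stretches of 80 bases in its transcript, 54.4% also occurred in transcripts of the pseudogenes Gm6644, Gm6736 and Gm12138, so its count is uncertain. More reads had been counted to Gm6644 than to Akr1b3: 23.4, 21.6, 23.9 and 17.1 CPM in Yap1KO replicates 1 to 4, against 29.9, 31.2, 35.9 and 30.4 CPM in Yap1WT replicates 1 to 4. The sum of Akr1b3 and Gm6644, chosen after their values were seen, was 21.3 to 30.9 CPM in Yap1KO libraries and 35.7 to 43.9 CPM in Yap1WT libraries, without overlap. With the sum in place of Akr1b3, the log2 fold change was -0.53 and was called (edgeR adjusted p = 0.0448), just under the threshold. From which of the 2 loci these reads came was not tested.

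Akr1a1, at chr4:116636510-116651674 (GRCm38.p6), encodes aldehyde reductase, which in mice serves the synthesis of ascorbate. It had 573, 633, 564 and 646 CPM in Yap1KO replicates 1 to 4, against 549, 545, 554 and 575 CPM in Yap1WT replicates 1 to 4. Yap1KO replicates 2 and 4 were above every Yap1WT library, and the other Yap1KO libraries were not. Its log2 fold change of 0.12 (SE 0.09) was not called (edgeR adjusted p = 0.521).

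**Figure D3:**
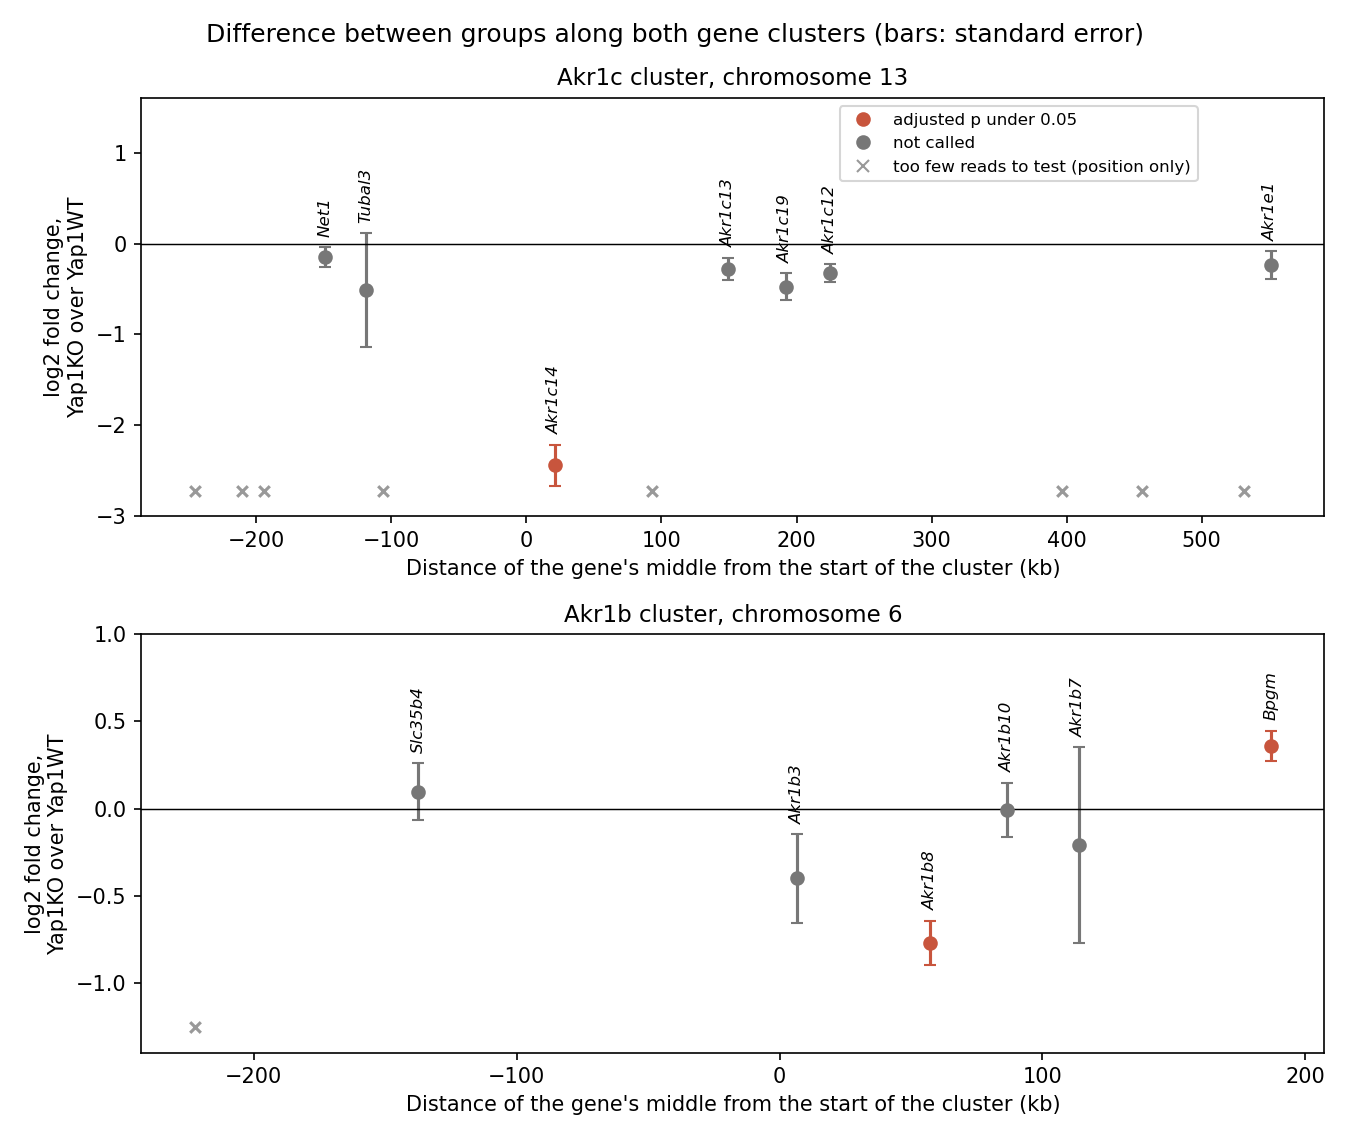
Log2 fold change, Yap1KO over Yap1WT (y axis, with its standard error), of the genes in and beside the Akr1c cluster (top) and the Akr1b cluster (bottom), against the distance of each gene's middle from the start of the cluster in kb. Akr1c14 at -2.44 and Akr1b8 at -0.77 are the called members (red), and Bpgm at 0.36 is the only called neighbour; crosses mark genes with too few reads to test and have no fold change.

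The tested genes around Akr1c14 were not called, and all of them had log2 fold changes below 0. Net1, on the outer side of the cluster, had a log2 fold change of -0.15 (edgeR adjusted p = 0.503), Tubal3 of -0.52 (edgeR adjusted p = 0.707) and Akr1e1, at the other end, of -0.24 (edgeR adjusted p = 0.430). Tubal3 was close to the limit of detection, at 0.92 CPM in Yap1KO and 1.31 CPM in Yap1WT. Beside the Akr1b cluster, Bpgm, which encodes the red cell enzyme of 2,3-bisphosphoglycerate synthesis, was higher in Yap1KO with a log2 fold change of 0.36 (edgeR adjusted p = 0.0394), the opposite direction to Akr1b8. Slc35b4 on the other side had 0.10 (edgeR adjusted p = 0.795).

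Levels can be compared between genes only per gene length, for which the deposited log2 RPKM values (reads relative to the length of the gene and the depth of the library, after quantile normalization) were used. In Yap1KO libraries the order by mean log2 RPKM was Akr1a1 at 8.71, Akr1b8 at 6.62, Akr1c13 at 6.13, Akr1c12 at 5.79, Akr1c19 at 4.17, Akr1c14 at 4.15, Akr1b10 at 3.44, Akr1b3 at 1.92 and Akr1b7 at 0.14. In Yap1WT libraries Akr1c14 stood at 6.57, after Akr1a1 at 8.65 and Akr1b8 at 7.37 and before Akr1c13 at 6.39, Akr1c12 at 6.10, Akr1c19 at 4.64, Akr1b10 at 3.49, Akr1b3 at 2.46 and Akr1b7 at 0.42. The other members thus kept one order of their means in both groups, and Akr1c14 alone changed its place among them. Neighbours whose libraries overlapped in these values were Akr1b8 with Akr1c13 and Akr1c19 with Akr1c14 in Yap1KO, and Akr1c14 with Akr1c13 in Yap1WT. All other neighbours were separated in their group.

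**Figure D4:**
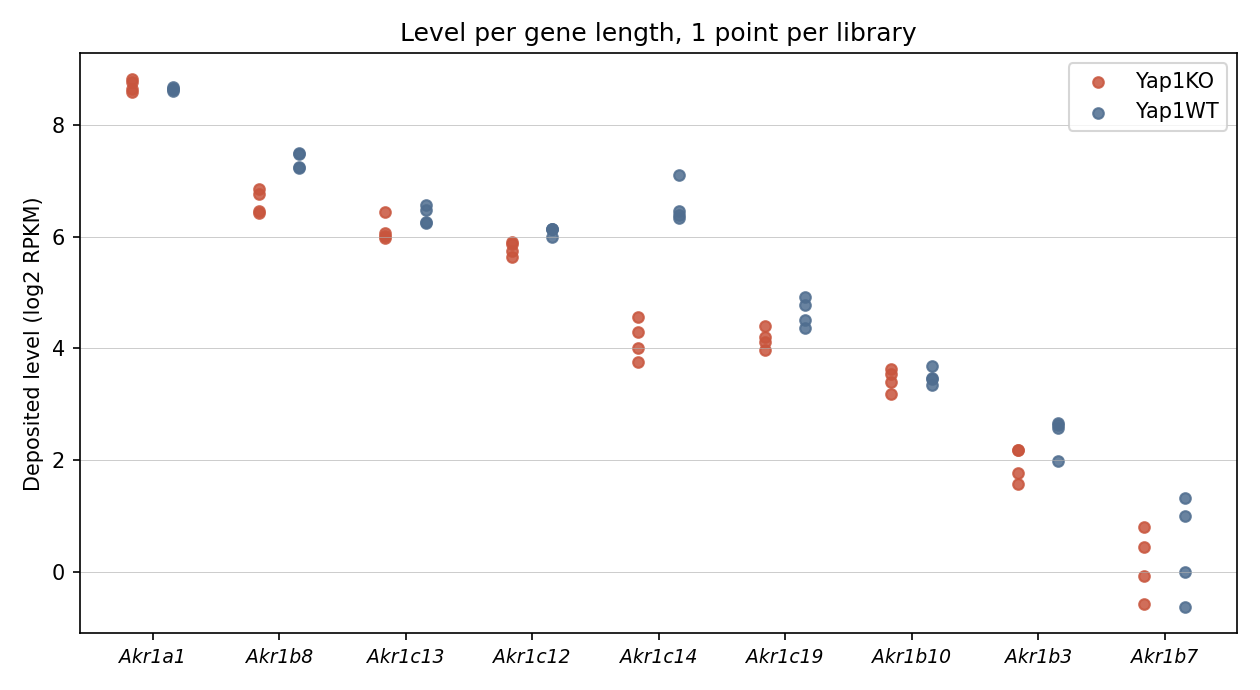
Deposited log2 RPKM (y axis) of the 9 aldo-keto reductase genes in the authors' normalized values, ordered by their mean over all libraries, with 1 point per library for Yap1KO (red, left of each pair) and Yap1WT (blue, right). Akr1a1 lies highest in both groups (8.60 to 8.82 and 8.61 to 8.68) and Akr1c14 lies near Akr1c19 in Yap1KO and near Akr1c13 in Yap1WT.

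In the same log2 RPKM values, all 4 Yap1KO libraries lay below all 4 Yap1WT libraries for 3 of the 9 members, Akr1c14, Akr1b8 and Akr1c12, and above them for 0 members. Over the 13819 genes of the deposited values, 6.89% lay wholly below and 6.64% wholly above. The log2 RPKM of Akr1c14 differed by -2.42, that of Akr1b8 by -0.75 and that of Akr1c12 by -0.31 between the groups, as Yap1KO minus Yap1WT. Each had an exact two-sided permutation p of 0.0286, the smallest that 4 against 4 libraries allow. Full separation of the groups always gives this value, so it adds nothing to the separation. The permutation p-values here are not adjusted over the 9 members. Akr1b3 had a difference of -0.53 (exact permutation p = 0.0857) and Akr1c19 of -0.47 (exact permutation p = 0.0571).

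The sequence upstream of the genes is shown for the called members and for Akr1c12, in which a motif was found, with Akr1c13 as its closest relative. Each window runs from 250 bases before to 50 bases after the start of transcription in RefSeq (GRCm38.p6), and 9 of the 10 members had one. The starts used for Akr1c14 and, by a shorter distance, for Akr1c13 and Akr1c19 lie inside the gene intervals given above, and no window around an outer start was searched. Akr1c14 is on the plus strand at chr13:4059341-4059640, Akr1b8 on the plus strand at chr6:34353896-34354195, Akr1c12 on the minus strand at chr13:4279350-4279649 and Akr1c13 on the plus strand at chr13:4190937-4191236. Capitals mark a match to a searched motif.
Akr1c14: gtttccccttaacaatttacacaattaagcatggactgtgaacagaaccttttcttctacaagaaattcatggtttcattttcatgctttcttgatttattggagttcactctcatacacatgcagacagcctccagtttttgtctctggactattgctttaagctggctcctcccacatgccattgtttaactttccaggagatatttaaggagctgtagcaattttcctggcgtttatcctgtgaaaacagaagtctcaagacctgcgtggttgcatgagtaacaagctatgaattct
Akr1b8: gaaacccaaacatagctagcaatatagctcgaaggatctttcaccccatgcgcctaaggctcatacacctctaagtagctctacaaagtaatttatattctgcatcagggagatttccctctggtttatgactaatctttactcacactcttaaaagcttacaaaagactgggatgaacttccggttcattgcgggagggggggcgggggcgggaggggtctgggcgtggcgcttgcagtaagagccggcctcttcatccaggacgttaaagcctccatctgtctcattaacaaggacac
Akr1c12: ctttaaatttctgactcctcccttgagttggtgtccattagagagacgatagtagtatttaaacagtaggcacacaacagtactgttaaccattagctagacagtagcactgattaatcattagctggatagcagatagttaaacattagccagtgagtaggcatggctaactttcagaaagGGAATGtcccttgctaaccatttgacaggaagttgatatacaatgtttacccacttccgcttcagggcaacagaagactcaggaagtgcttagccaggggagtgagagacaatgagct
Akr1c13: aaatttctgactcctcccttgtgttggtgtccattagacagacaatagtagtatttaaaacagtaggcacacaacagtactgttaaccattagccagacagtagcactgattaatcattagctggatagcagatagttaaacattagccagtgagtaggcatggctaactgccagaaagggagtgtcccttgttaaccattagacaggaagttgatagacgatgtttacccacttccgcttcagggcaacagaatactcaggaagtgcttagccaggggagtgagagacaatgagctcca
The motifs, searched on both strands, were the TEAD site GGAATG, the core of the antioxidant response element TGACNNNGC, to which NRF2 binds, and the AP-1 site TGANTCA, bound by FOS and JUN. The last 2 can overlap, since one stretch may match both. The Akr1c12 window held 1 TEAD site, at bases -68 to -63 from the start of transcription, and the Akr1c19 window held 1 core of the antioxidant response element on its minus strand, at bases 8 to 16. The windows of Akr1c14, Akr1b8 and the other members held none of the 3 in these letters. Sequence outside these windows was not searched, so the absence holds for the windows only. Of 32851 mouse promoter windows of this length, 14.7% held the TEAD site, 12.4% the antioxidant response element core and 7.81% the AP-1 site. The Akr1c12 and Akr1c13 windows were 95.9% identical, and the Akr1c14 window was 60.5% identical to that of Akr1c12.

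The genes whose pattern over the 8 libraries was most like that of Akr1c14 were Stc2, which encodes the secreted glycoprotein stanniocalcin 2, Tnn, which encodes the matrix protein tenascin N, and Sult1b1, which encodes a sulfotransferase. Their root mean square differences from Akr1c14 were 0.28, 0.28 and 0.30 in centred log2 CPM, and their log2 fold changes were -2.51, -2.38 and -2.42. Tnn was far less abundant, at 2.03 CPM in Yap1KO and 10.7 CPM in Yap1WT. The genes closest to Akr1b8 were Grk6, which encodes a kinase of G protein-coupled receptors, Trp53i11 and Ccdc93, at distances of 0.09, 0.09 and 0.11 and with log2 fold changes of -0.68, -0.74 and -0.74. These lists describe likeness in these 8 libraries.

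Genes of enzymes that share substrates with the aldo-keto reductases were counted in lists, each beside the 2.34% of all genes called lower and the 3.52% called higher. These lists and the NRF2 list were chosen with earlier results of these data known. Their counts are thus descriptions, and a count above these shares is not a test of a list. In the polyol and fructose pathway 0 of 7 tested genes were lower and 1 was higher, with a median log2 fold change of 0.45. The higher gene was Sord, which oxidizes the sorbitol made by aldose reductase: 134 ± 17.0 CPM in Yap1KO and 91.4 ± 11.8 CPM in Yap1WT (SD, n = 4 each, log2 fold change 0.56, edgeR adjusted p = 0.0303). The call of Sord rested on the full set of libraries: 0 genes of the list were called higher without Yap1KO replicate 1, 2 or 3 or without Yap1WT replicate 1, 3 or 4. Akr1b3, which acts before Sord in the pathway, was not called.

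Of 17 tested carbonyl and retinal reductases, 2 were lower and 2 higher, with a median log2 fold change of -0.00024. The lower genes were Cbr1 and Cbr3, carbonyl reductases that reduce quinones and other ketones. Cbr1 had 167 ± 33.6 CPM in Yap1KO and 328 ± 33.9 CPM in Yap1WT (log2 fold change -0.98, edgeR adjusted p = 0.00374). Cbr3 had 71.3 ± 12.4 CPM in Yap1KO and 177 ± 30.9 CPM in Yap1WT (log2 fold change -1.31, edgeR adjusted p = 0.00125). The higher genes were Dhrs1 at a log2 fold change of 0.73 and Dcxr, the reductase of dicarbonyl compounds and L-xylulose, at 0.89.

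Of 19 tested aldehyde dehydrogenases, which oxidize aldehydes where aldo-keto reductases reduce them, 2 were lower and 2 higher, with a median log2 fold change of 0.09. The lower genes were Aldh3a1 (log2 fold change -1.44) and Aldh1a1 (-0.97), which oxidizes retinal, and the higher genes were Aldh1l1 (0.81) and Aldh4a1 (0.69), which act on folate and on proline breakdown. Of 7 tested alcohol dehydrogenases and glyoxalases 1 was lower and 0 were higher, with a median of -0.09. This was Adh7, the alcohol dehydrogenase of the stomach, at 11.5 ± 5.06 CPM in Yap1KO and 76.4 ± 36.0 CPM in Yap1WT (SD, n = 4 each, log2 fold change -2.74, edgeR adjusted p = 0.00382).

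Of 12 tested genes of prostaglandin synthesis and breakdown, 2 were lower and 0 higher, with a median of -0.01. Both encode enzymes of breakdown: Ptgr1, a reductase of oxidized prostaglandins, had 303 ± 31.3 CPM in Yap1KO and 708 ± 102 CPM in Yap1WT (log2 fold change -1.23, edgeR adjusted p = 0.000648), and Hpgd, which oxidizes prostaglandins, had 72.7 ± 11.9 CPM in Yap1KO and 139 ± 28.9 CPM in Yap1WT (log2 fold change -0.93, edgeR adjusted p = 0.00928). Of 14 tested genes of steroid hormone enzymes, 2 were lower, Hsd17b11 at a log2 fold change of -0.72 and Hsd17b6 at -1.81, and 0 were higher, with a median of -0.05. Hsd17b6 was weakly expressed, at 0.76 CPM in Yap1KO and 2.67 CPM in Yap1WT. Of the other aldo-keto reductase genes, 2 of 10 were tested, Akr7a5 (log2 fold change 0.17) and Akr1e1 (-0.24), and neither was called.

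Of 26 tested genes of NRF2 and its targets, 5 were lower and 2 higher, with a median log2 fold change of -0.20, and 18 of the 26 were below 0. The lower genes were Nqo1, a quinone reductase, at -1.52, Abcc3, an efflux transporter, at -1.30, Gstm1, a glutathione transferase, at -0.91, Gclc, which starts glutathione synthesis, at -0.71, and Me1, malic enzyme, at -0.94, which had the largest p of the 5 and was named after its value was seen. Nqo1 had 134 ± 17.9 CPM in Yap1KO and 386 ± 82.0 CPM in Yap1WT (SD, n = 4 each, edgeR adjusted p = 0.000731). In the opposite direction, Ephx1, an epoxide hydrolase, had a log2 fold change of 2.53 (edgeR adjusted p = 0.000209) and Hmox1, heme oxygenase, of 0.80 (edgeR adjusted p = 0.0171). The list thus held calls in both directions.

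Markers of the cells that the sort could hold were compared between the groups too. All 8 tested foveolar markers had fold changes below 0, with a median log2 fold change of -0.96 and 3 of 8 called lower (Capn8, Anxa10 and Vsig1). Their summed level was 22255 to 38612 CPM in Yap1KO libraries and 31916 to 64385 CPM in Yap1WT libraries. The highest Yap1KO sum was that of replicate 4, and without it the Yap1KO sums reached 31813 CPM and did not overlap with those of Yap1WT. The 2 most abundant, Gkn1 (log2 fold change -0.62) and Gkn2 (-0.95), were not called. All 4 chief and parietal markers were below 0 with a median of -1.54 and none called (442 to 1807 CPM in Yap1KO, 243 to 3627 CPM in Yap1WT, led by Pgc and Atp4a). The part of a change in cell make-up in the fall of Akr1c14 and Akr1b8 was not tested.

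All 10 endothelial markers were above 0, with a median log2 fold change of 1.32 and 1 of 10 called higher (Tie1), and their sum was 568 to 1158 CPM in Yap1KO libraries and 180 to 651 CPM in Yap1WT libraries, led by Plvap (1.39) and Pecam1 (1.22). Without Yap1KO replicate 4 the Yap1KO sums reached 951 CPM. Of 10 fibroblast markers 8 were above 0, with a median of 0.998 and none called (365 to 1124 CPM in Yap1KO, 107 to 863 CPM in Yap1WT, led by Col3a1 and Col1a1). Epithelial markers were abundant in both groups, at 8791 to 11255 CPM in Yap1KO and 9500 to 11404 CPM in Yap1WT, with Krt8 and Krt19 the most abundant and 2 of 8 called higher, Epcam at 0.76 and Cldn4 at 2.54. The median log2 fold change of the epithelial markers was 0.55, with 5 above 0 and 3 below. Leukocyte markers summed to 9.44 to 20.1 CPM in Yap1KO and 10.8 to 17.4 CPM in Yap1WT, with a median log2 fold change of -0.75 over the 4 of 10 that were tested. Of these 3 were below 0, among them Ptprc (-1.17, not called), and 1 was called higher, Cd68 (1.06), and 8 of the 10 were at 0 reads in some library. Intestinal markers summed to 15.2 to 80.7 CPM in Yap1KO and 18.8 to 60.6 CPM in Yap1WT, led by Fabp2 and Apoa1. Their median log2 fold change was 0.88, with 0 of 4 tested genes called. Of pancreas and liver markers, 3 of 6 were tested, all above 0 with a median log2 fold change of 0.79, and 1 was called higher, Cela1, the most abundant. The next, Ctrb1, reached 265 CPM in Yap1KO replicate 2 and at most 0.50 CPM elsewhere.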

How the data were processed

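Libraries were made with the TruSeq RNA kit, which does not mark strand, and sequenced as paired-end reads of 80 bp. The authors used Subread for alignment to GRCm38/mm10 and featureCounts for counting per gene, whose versions are not given in the sources used here; the deposited counts are whole numbers without normalization. The deposited log2 values, 1 set per library, were made by the authors with voom and quantile normalization and are log2 RPKM. Whether reads that map to several places were counted is not given in the sources used here.

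Of the count table's columns, 8 matched a sample by mouse number and 6 that matched none were not used. Of 27179 entries, 1277 without a name (0.552% to 0.789% of the counts of a library) and 762 pseudogenes were left out. Groups were tested on the counts with edgeR 4.0.16 in R 4.3.3 (TMM factors, quasi-likelihood F test, p-values adjusted by Benjamini-Hochberg over the 13508 genes above 0.5 CPM in at least 6 libraries, no covariate). SDs are over 4 libraries, each from 1 mouse, and standard errors come from the fold change and the F value. Distances between patterns used log2 CPM with a prior count of 2.

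Alternatives were limma-voom (limma 3.58.1) with quantile normalization, DESeq2 1.42.0, RLE and upper-quartile factors, library sizes without the 20 most abundant genes, a filter at 4 libraries and none, all pseudogenes left out, the replicate number as a block, the mouse-number series as a block, limma-trend fitted to the log2 RPKM and leaving out each library. A term for sex, the sum of Akr1b3 and Gm6644 and the pair ratios without each library were chosen after seeing the data. Same-numbered libraries did not deviate together in all 4 numbers (correlations 0.03, 0.35, 0.05 and 0.15), so the main test was not paired.

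Members and gene lists were chosen with earlier results of these data known. The genes named were every member, Yap1, in each pathway list the called genes (at most 4 in each direction, by p) or, without calls, the 2 most abundant, the 2 most abundant of each marker list, and the 3 genes nearest in pattern to each called member. Further called markers, the genes beside the clusters, Gm6644, Ctrb1 and Me1 were named after their values were seen. Sequences were read from RefSeq tables of GRCm38.p6 and GRCm38 transcripts with Python 3.11.15 and Biopython 1.88, and plots drawn with matplotlib 3.10.9.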

Additional observations from a re-analysis of the deposited data

Results flagged for a closer look

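Of 18 groups of 4 libraries tested for a value far from the others (9 members in 2 groups), 2 held one, where chance gives about 1 in 20. In Akr1c14, Yap1WT replicate 3 (346 CPM, against 200.4 to 214 CPM in the other Yap1WT libraries) was apart by 0.877 of the group's range on the log2 scale. In Akr1b3, Yap1WT replicate 4 (5.29 CPM, against 7.997 to 8.62 CPM in the other Yap1WT libraries) was apart by 0.846 of the group's range. Yap1WT replicate 3 also had the highest Akr1c19 and Akr1c12 levels of its group, at 38.0 and 89.4 CPM, the latter close to 87.4 CPM in Yap1WT replicate 4. Akr1c13 was instead highest in Yap1WT replicate 2, at 117 CPM against 113 CPM in Yap1WT replicate 3.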

How the results depend on the processing

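The count of members called lower was 2 of 9 in 18 of 21 alternatives and 3 in the others (DESeq2, the replicate block, and Akr1b3 summed with Gm6644), and 0 members were called higher in any of them. Akr1c14 and Akr1b8 were called in all 21, at log2 fold changes of -2.59 to -2.21 and -0.83 to -0.71. The calls over all genes were 792 in the main test, 1445 with DESeq2, 1306 with the replicate block, 1049 with the block for mouse numbers and 939 with the term for sex. With 1 library left out they were 404 to 775, lowest without Yap1WT replicate 3 (404), Yap1KO replicate 4 (465) and Yap1KO replicate 1 (498). The replicate block added Akr1c12 (log2 fold change -0.32, adjusted p = 0.0419) and changed no other member's call, and the libraries share only a number: 2 of 4 correlated best with their own. Members at the smallest exact permutation p were 3, and 2 to 4 with 1 library left out.

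Of the uncalled members, Akr1b10 changed sign with upper-quartile factors (log2 fold change 0.00025), with library sizes that leave out the 20 most abundant genes (0.0019) and without 1 library (-0.075 to 0.074 over the libraries left out), and Akr1b7 without Yap1WT replicate 1 (0.18, and -0.54 to 0.18 over all left out). The cause was not tested.

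Counts in the pathway lists moved by over 1.5 times too. Carbonyl and retinal reductases called lower were 2 in the main test and 4 with DESeq2, the replicate block and the block for mouse numbers, and those called higher were 1 without Yap1KO replicate 1 or 4 or Yap1WT replicate 2, 3 or 4. Aldehyde dehydrogenases called higher were 6 with DESeq2, 4 with the block for mouse numbers and 1 without Yap1KO replicate 1 or Yap1WT replicate 2, 3 or 4, and those called lower were 1 without Yap1KO replicate 1 or 4. Steroid hormone enzymes called lower were 1 without Yap1KO replicate 1 or Yap1WT replicate 1 or 3, and NRF2 targets called higher were 1 without Yap1WT replicate 3. Polyol genes called higher were 0 to 2 with 1 library left out. Prostaglandin and steroid genes called higher were 1 in place of 0 in 4 and in 3 alternatives.

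Akr1c18, Akr1b7 and Akr1b3 had the fewest reads, at most 9, 237 and 661 in a library. With 4 libraries per group the smallest exact p is 0.0286. Yap1KO replicate 4 has the fewest reads and stands apart, and both called members were still called without it. Reads shared by Akr1c12 and Akr1c13, and by Akr1b3 and its pseudogenes, cannot be split with certainty. Where Yap1WT mice had vehicle, as the study describes, an effect of tamoxifen itself cannot be told apart from the loss of Yap1.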
